A study of Mus musculus with 3 samples.

Results

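Neutrophils carry their antimicrobial proteins and proteases in granules, and 10 genes of these proteins were examined in single cells of mouse fracture callus. The genes were set by name, 4 of primary granules (*Elane*, *Mpo*, *Prtn3*, and *Ctsg*), 4 of secondary granules (*Ltf*, *Camp*, *Ngp*, and *Lcn2*), and 2 grouped here as tertiary (*Mmp8* and *Mmp9*). The place of *Mmp8* in the tertiary group was a choice, and a setting that counted it as secondary was also run. All 10 were found among the 32285 genes of the deposited files. They were read in day 7 cells with at least 500 detected genes and either a UMI of *Ptprc*, the gene of the leukocyte antigen CD45, or at least 500 UMIs of *S100a8* and *S100a9* together per 10,000. A UMI is a molecular tag that stands for 1 captured mRNA molecule. The rule found 7639 of the 8439 day 7 cells with at least 500 genes (90.5%, 95% CI 89.9–91.1), and the deposited files hold 30888 barcodes in all, 9103 of them from day 7.

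Callus came from C57BL/6 mice with a femoral fracture and no treatment, at day 7, day 10, and day 14 after fracture, and the sources used here give neither the age of these mice nor the number pooled. Each day is 1 droplet library, so no difference between days could be set against the variation between animals, and no p-value is given. The callus was cleaned of marrow and digested, and live cells negative for CD45, CD31, and TER119 were sorted, a population that the labels call mesenchymal. The libraries held 113127788 UMIs at day 7, 144103160 at day 10, and 195661880 at day 14.

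The day 7 library went against its label. Of the cells with at least 500 genes, 890 of 8439 had no *Ptprc* UMI at day 7, against 8220 of 8226 at day 10 and 11874 of 12067 at day 14. By the rule, 7549 of the 7639 selected cells had one. The same rule found 8 cells at day 10 and 209 at day 14. How leukocytes passed a sort against CD45 was not tested. Libraries shared 29 to 42 barcodes in each pair, and no barcode was selected in both libraries of a pair. Among the selected cells, 6138 (80.4%, 95% CI 79.4–81.2) reached the *S100a8* and *S100a9* limit. The other 1501 cells had a *Ptprc* UMI and were deeper, with a median of 27047 UMIs per cell against 5018.5. Of the 90 selected cells without *Ptprc*, the lowest had 511 UMIs of *S100a8* and *S100a9* per 10,000, and the highest cell left out had 474.

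Granule proteins are made in waves while a neutrophil matures in the marrow. Primary granules form in promyelocytes, secondary granules in myelocytes and metamyelocytes, and tertiary granules in band cells, so a protein enters the granule that is being built when its mRNA is made. Precursors divide until the myelocyte stage, and the chemokine receptor CXCR2 appears late, on cells that can leave the marrow. *Mki67*, a marker of dividing cells, and *Cxcr2* were therefore read beside the 10 genes.

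Promoter sequence is shown for 7 genes whose windows held a motif of the transcription factors best known for granule genes, ETS factors such as PU.1 and C/EBP factors such as C/EBPε. The stretches are RefSeq sequence of GRCm38.p6, printed 5′ to 3′ on the gene's strand up to the first exon of the gene that GENCODE annotates within the window, and capitals mark the letters GGAAGT or TTGCNNAA on either strand.

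Elane, chr10:79886062-79886246, plus strand: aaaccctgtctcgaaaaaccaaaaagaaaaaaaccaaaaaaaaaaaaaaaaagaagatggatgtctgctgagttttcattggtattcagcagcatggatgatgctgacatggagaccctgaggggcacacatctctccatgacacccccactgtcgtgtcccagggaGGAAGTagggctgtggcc
Prtn3, chr10:79879417-79879613, plus strand: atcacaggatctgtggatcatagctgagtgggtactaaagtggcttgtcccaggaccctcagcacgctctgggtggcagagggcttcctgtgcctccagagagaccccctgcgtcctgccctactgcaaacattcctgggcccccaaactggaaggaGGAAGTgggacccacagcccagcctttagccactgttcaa
Mpo, chr11:87793534-87793580, plus strand: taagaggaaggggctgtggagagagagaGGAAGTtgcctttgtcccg
Ctsg, chr14:56102575-56102824, minus strand: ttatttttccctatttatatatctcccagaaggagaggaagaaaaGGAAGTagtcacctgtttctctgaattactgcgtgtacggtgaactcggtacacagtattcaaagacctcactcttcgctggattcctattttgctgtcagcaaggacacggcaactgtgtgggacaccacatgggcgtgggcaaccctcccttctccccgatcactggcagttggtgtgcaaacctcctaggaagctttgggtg
Ltf, chr9:111019042-111019270, plus strand: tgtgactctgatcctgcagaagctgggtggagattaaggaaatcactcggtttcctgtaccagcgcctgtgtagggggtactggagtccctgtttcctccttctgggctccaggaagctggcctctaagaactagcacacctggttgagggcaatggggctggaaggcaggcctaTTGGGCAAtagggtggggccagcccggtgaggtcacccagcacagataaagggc
Ngp, chr9:110419558-110419746, plus strand: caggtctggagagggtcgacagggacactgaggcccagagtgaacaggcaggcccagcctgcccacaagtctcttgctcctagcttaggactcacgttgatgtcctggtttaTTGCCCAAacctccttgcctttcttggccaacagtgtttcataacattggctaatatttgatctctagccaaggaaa
Mmp8, chr9:7558179-7558428, plus strand: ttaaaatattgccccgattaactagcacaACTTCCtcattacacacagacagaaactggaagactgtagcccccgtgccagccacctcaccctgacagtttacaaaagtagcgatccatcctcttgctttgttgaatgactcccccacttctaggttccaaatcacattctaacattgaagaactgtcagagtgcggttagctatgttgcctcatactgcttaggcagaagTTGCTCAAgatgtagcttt

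The 250 bases before the RefSeq start were searched on both strands for 3 motifs in 9 of the 10 genes, and *Mmp9* was not searched. The ETS letters GGAAGT stood in the windows of all 4 primary genes and of *Mmp8*, 5 of 9, and in 19.99% of 27025 mouse promoters. The C/EBP letters TTGCNNAA stood in 4 of 9, namely *Ltf*, *Ngp*, *Lcn2*, and *Mmp8*, and in 9.55% of promoters. The *Lcn2* window begins in an annotated exon and is not printed. No primary gene held the C/EBP letters, and no secondary gene held the ETS letters. The MYB letters CAACGG stood in 2 of 9, *Elane* and *Prtn3*, and in 4.15% of promoters, at positions inside or across the start of an annotated exon. No motif letters overlapped one another. *Camp* held none of the 3, and a match or its lack describes these letters only. The letters were picked after values were seen, so the split between the groups is a description.

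*Prtn3* and *Elane* lie side by side on the plus strand of chromosome 10, at chr10:79874476-79883174 and chr10:79886247-79888215, with 3072 bases between them, and the printed *Prtn3* stretch falls inside the longer gene that GENCODE annotates. *Camp*, *Ngp*, and *Ltf* lie within a stretch of chromosome 9, with 570 kb between the first pair and 596 kb between the second.

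All 10 granule genes were far above background in the selected day 7 cells. Background was the level in day 14 cells without a *Ptprc* UMI, the gene that also chose most day 7 cells. These were 11874 cells with a median of 15565 UMIs. Levels are summed over cells and scaled to 1000000 UMIs (CPM), with 95% intervals that cover counting error only. *Elane*, neutrophil elastase, stood at 3484 CPM (95% CI 3472–3496) in the selected cells and 4.42 CPM at day 14, a log2 ratio of 9.62 (95% CI 9.52–9.72). *Camp*, the antimicrobial peptide cathelicidin, stood at 16384 and 33.0 CPM, a log2 ratio of 8.95. *Mmp8*, neutrophil collagenase, stood at 1214 and 0.546 CPM, which gave the largest log2 ratio of the 10 at 11.12 (95% CI 10.84–11.41).

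The smallest ratio was that of *Mmp9*, gelatinase B, at 1087 against 49.99 CPM (log2 ratio 4.44). The remaining ratios were 10.40 for *Ctsg* (cathepsin G), 9.62 for *Ltf* (the iron-binding lactoferrin), 9.59 for *Mpo* (myeloperoxidase), 8.90 for *Ngp* (neutrophilic granule protein), 8.54 for *Prtn3* (proteinase 3), and 7.99 for *Lcn2* (lipocalin 2, which binds bacterial siderophores). Thus 10 of 10 genes were at least 2-fold higher, with a median log2 ratio of 9.27, where 22.8% of the 19075 genes compared were at least 2-fold higher, 36.9% at least 2-fold lower, and their median was -0.31. Summed over a group, the log2 ratio was 9.31 for primary, 8.78 for secondary, and 5.51 for tertiary genes. Markers of other blood cells were higher too, 10 of 11 genes of the B lineage list and 11 of 12 of the monocyte and macrophage list, while 10 of 10 skeletal genes were at least 2-fold lower.

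For 8 of the 10 genes most of the day 14 background lay in few cells. A cell is called high in a granule group when the genes of the group sum to at least 10 UMIs per 10,000. At day 14, 51 of the 11874 cells were at this level for *Camp* alone and held 88.6% of its UMIs, and none of them had *S100a8* and *S100a9* under 10 per 10,000. For *Mpo* and *Mmp8* the cells at this level held 38.2% and 43.8% of the UMIs. Without the cells above that S100 level, *Camp* was at 2.71 CPM, *Ngp* at 2.00, and *Elane* at 0.256, and the log2 ratio became 10.76 for primary and 11.03 for secondary genes. *Mmp9* did not follow, and remained at 49.8 CPM.

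*Mmp9* background sat in a small set of cells with much *Spp1*, the gene of the matrix protein osteopontin. At day 14, 116 cells without *Ptprc* reached 10 *Mmp9* UMIs per 10,000 and held 79.8% of its UMIs, and 111 of them had *S100a8* and *S100a9* under 10 per 10,000. These 111 cells carried 205 UMIs per 10,000 of the skeletal list against 823 in the other 11616 cells, and 1.64 of the osteoclast list against 3.17. Higher in them, summed over cells, were the monocyte and macrophage list at 4.02 against 1.71, the B lineage list at 2.64 against 1.26, and the proliferation list at 8.68 against 4.52. The medians per cell were 0 against 0, 1.44 against 0.80, and 1.56 against 1.53. The part of these cells in the result was not tested. Their level of *Spp1* was 366 UMIs per 10,000 against 107, a gene named after its value was seen. At day 10, 36 such cells gave *Spp1* 337 against 45.7 and a median of the monocyte and macrophage list of 3.83 against 0. *Lcn2* at 10 per 10,000 or more was found in 53 day 14 cells, 27 of them with little S100, and in those 27 *Col2a1*, the cartilage collagen, was at 268 UMIs per 10,000 against 159. *Camp*, *Ngp*, *Ltf*, and *Mmp8* had no high cell with so little S100, and the primary genes had 1 to 4 each.

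**Figure D1:**
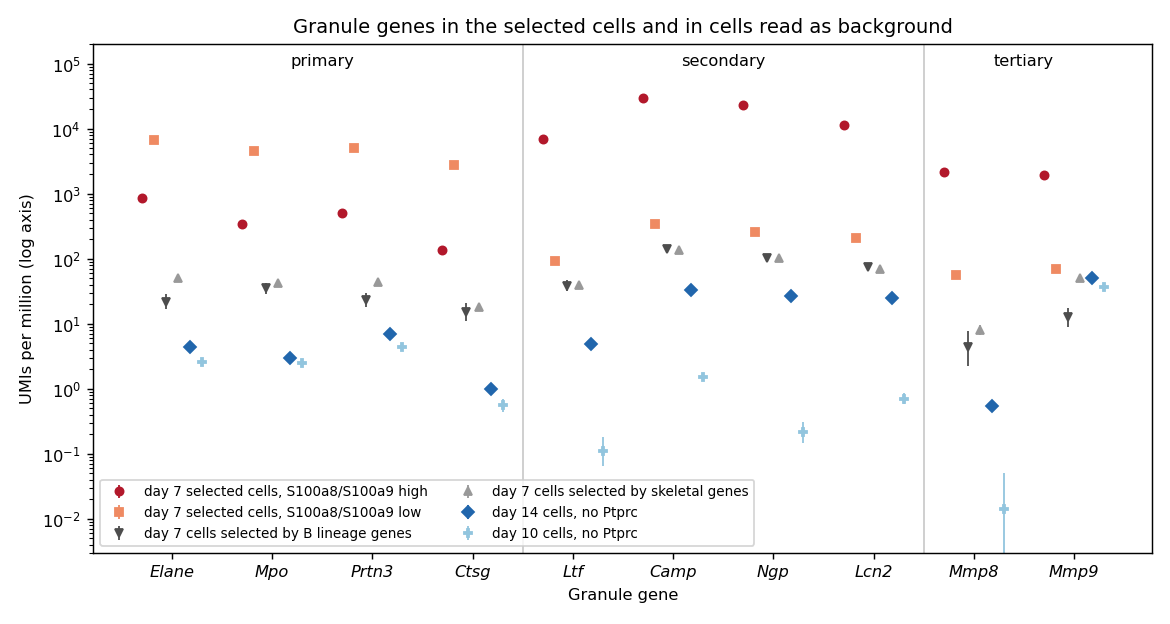
Level of each granule gene (CPM, log axis) in 6 sets of cells, with exact Poisson 95% intervals that cover counting error only. Primary genes were highest in the selected cells with low *S100a8* and *S100a9*, secondary and tertiary genes in those with high *S100a8* and *S100a9*, and *Mmp9* stood at 49.7 CPM in day 7 skeletal cells, 49.99 at day 14, and 36.6 at day 10.

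Day 7 cells of other types carried more *Camp* and *Elane* RNA than day 14 cells. Cells selected by B lineage genes (176 cells, median 8738 UMIs) had 140 CPM of *Camp* and 21.8 CPM of *Elane*, and cells selected by skeletal genes (600 cells, median 31215.5 UMIs) had 135 and 50.7 CPM. A *Camp* UMI was seen in 80.1% and 94.0% of them, and in 36.1% and 26.2% after each cell was thinned to 2000 UMIs. In the selected cells these shares were 89.5% and 72.3% for *Camp*, and 42.3% and 23.6% for *Elane*, against 4.73% and 7.496% for *Elane* after thinning in the B lineage and skeletal sets. A single *Camp* UMI at day 7 was therefore poor evidence of expression, and the groups are described by the limit of 10 UMIs per 10,000. At that limit 2.27% of the B lineage set was primary-high, 17.0% secondary-high, and 0 of 176 tertiary-high, which allows up to 2.07%. In the skeletal set the shares were 2.67%, 3.83%, and 1.0%. In the selected cells they were 14.7% (1121 cells), 80.1% (6118), and 71.3% (5444). In the 800 day 7 cells outside the rule they were 13.6% (109 cells), 17.6%, and 1.5%. Primary-high cells were thus about as common outside the rule as within it.

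Selected cells below and above the S100 limit held different granule genes. In the 1501 selected cells with low *S100a8* and *S100a9*, *Elane* was at 6648 CPM, *Mpo* at 4565, *Prtn3* at 4990, and *Ctsg* at 2768, whereas in the 6138 cells with high S100 they were at 847, 336, 510, and 137. The secondary genes had the opposite split, with *Camp* at 341 against 29753 CPM and *Ltf* at 90.6 against 6905. So did the tertiary genes, with *Mmp8* at 56.9 against 2179 and *Mmp9* at 68.8 against 1936. Since *S100a8* and *S100a9* chose the cells, the split describes the selection and is not a finding on S100.

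The 4 primary genes were found together. After thinning to 2000 UMIs, which 7194 selected cells reached, 834 cells had at least 2 *Elane* UMIs, and 84.1% of these also had 2 of *Prtn3*, 78.5% of *Mpo*, and 72.4% of *Ctsg*. *Ctsg* cells were the most complete, since of 675 cells 92.7% held *Prtn3*, 92.7% *Mpo*, and 89.5% *Elane*. All 4 genes were present in 589 cells (8.19%), 3 of them in 85, 2 in 93, 1 in 315, and none in 6112. Secondary and tertiary genes were much rarer in *Elane* cells, where 24.7% held *Camp*, 9.95% *Ltf*, 10.1% *Mmp8*, and 11.99% *Mmp9*. Over all 7194 cells those 4 shares were 54.2%, 37.4%, 58.5%, and 68.9%. The primary genes were held by 11.6% (*Elane*), 11.5% (*Prtn3*), 10.8% (*Mpo*), and 9.38% (*Ctsg*) of all these cells.

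The secondary genes were nested rather than matched. Of 2692 cells with 2 *Ltf* UMIs, 98.5% held *Camp*, 98.5% *Ngp*, and 99.4% *Lcn2*, but of 5324 *Lcn2* cells 50.3% held *Ltf*. Over all 7194 thinned cells 54.2% held *Camp*, 58.2% *Ngp*, 74.0% *Lcn2*, and 37.4% *Ltf*. *Ltf* cells held *Mmp8* in 69.9% and *Mmp9* in 74.3% of cases, and *Elane* in 3.08%, against 58.5%, 68.9%, and 11.6% of all thinned cells. The tertiary pair was closer, with *Mmp9* in 95.4% of 4207 *Mmp8* cells and *Mmp8* in 80.9% of 4959 *Mmp9* cells. *Cxcr2* and *Mki67* were counted as present at any UMI. *Cxcr2* was present in 84.1% of *Mmp8* cells and 85.1% of *Mmp9* cells, in 55.5% of *Ltf* cells, and in 15.2% of *Elane* cells. *Mki67* ran the other way, in 41.6% of *Elane* cells, 21.2% of *Ltf* cells, and 3.02% of *Mmp8* cells. Over all thinned cells *Cxcr2* was present in 63.5% and *Mki67* in 15.9%, so the *Ltf* cells lay near these shares for both.

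**Figure D2:**
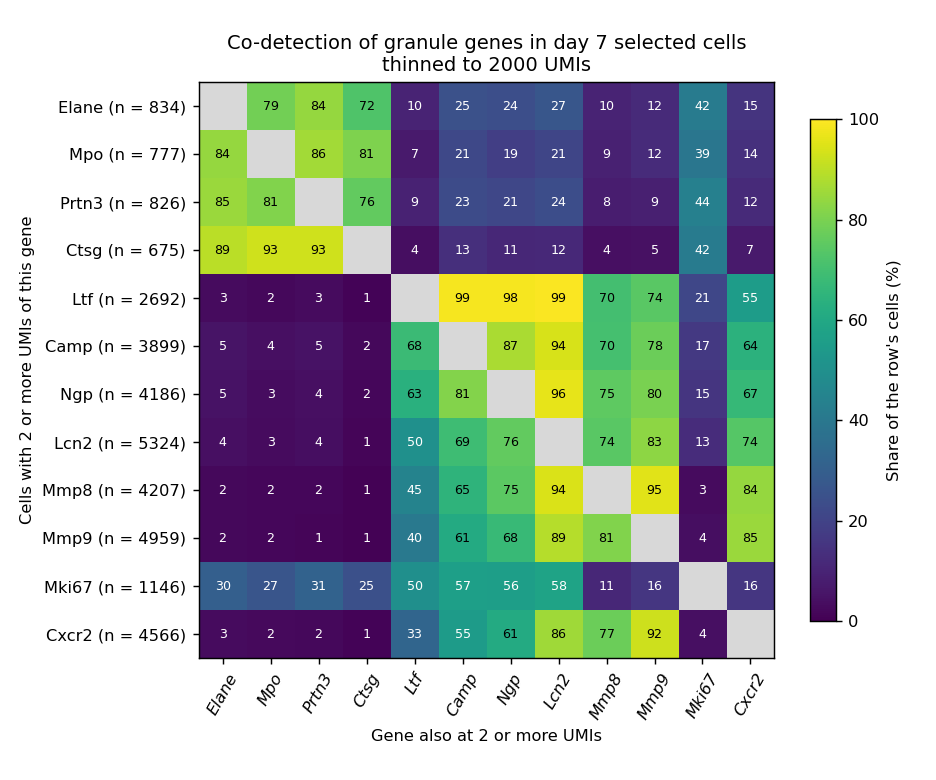
Share of day 7 selected cells with the row's gene that also had the column's gene, after thinning each cell to 2000 UMIs. Granule genes were counted at 2 or more UMIs, the limit on the axis labels, but *Mki67* and *Cxcr2* at any UMI. The 4 primary genes form a block of 72.4% and more, *Ltf* cells are nearly all *Camp*, *Ngp*, and *Lcn2* cells, and *Cxcr2* goes with *Mmp8* and *Mmp9*.

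By groups, 40.8% (95% CI 37.9–43.7) of 1121 primary-high cells were also secondary-high and 24.1% were tertiary-high. These shares differed with depth, and in a cell of 2000 UMIs the limit is 2 UMIs. Among cells with at least 5000 UMIs, 24.4% (199 of 814) of primary-high cells were secondary-high and 4.05% (33 of 814) were tertiary-high. The overlap of the later groups was large at both depths, with 84.2% of secondary-high cells tertiary-high, or 76.5% at 5000 UMIs. In reverse, 94.6% of tertiary-high cells were secondary-high, and 99.6% at 5000 UMIs, while 1.35% were primary-high at that depth. Over deep selected cells of all lineages the groups thus formed a chain, primary with some secondary and secondary with tertiary. Few such cells held primary and tertiary genes. The primary-high cells were not all of the granulocyte lineage, as described below. Among cells chosen by S100 alone, at all depths, 93.2% of primary-high cells were secondary-high. The study's limits on genes, mitochondrial, and hemoglobin UMIs together would leave out 805 of the 1501 cells with low S100, and under them the primary log2 ratio over background was 6.14 and the share of primary-high cells that were secondary-high 75.8%.

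*Mki67* and *Cxcr2* differed most between the classes low and high in tertiary genes, and some neighbouring classes had overlapping intervals. Of 635 cells high in primary genes only, 44.0% had *Mki67* after thinning and 3.03% had *Cxcr2*. The class was not split by lineage and need not hold neutrophil precursors alone. Among all primary-high cells with low S100, 439 leaned to monocyte genes and 240 to granulocyte genes, by a gate described below. *Mki67* was seen in 47.9% and 37.9% of them. In the 216 cells high in primary and secondary genes, 61.5% had *Mki67* and 14.97% *Cxcr2*, and in the 751 high in secondary genes only, 57.3% and 21.1%. Both markers turned over at the next step. In the 4910 cells high in secondary and tertiary genes, 3.58% (95% CI 3.07–4.16) had *Mki67* and 84.2% (95% CI 83.1–85.3) had *Cxcr2*, and in the 264 high in tertiary genes only, 3.17% and 97.3%. The background for *Cxcr2* was 0 of 169 cells in the B lineage set (up to 2.16%) and 1.70% in the skeletal set, and the interval of the primary-only cells (95% CI 1.83–4.69) overlapped that of the skeletal set (95% CI 0.82–3.11). *Mki67* was seen in 4.77% of the skeletal set, at 40.3 CPM, and stood at 87.4 CPM (95% CI 84.2–90.7) in the secondary and tertiary cells. Skeletal cells can divide, so their share is no true background. *Mki67* and *Cxcr2* were seen together after thinning in 8 of 627 primary-only, 45 of 707 secondary-only, and 103 of 4689 secondary and tertiary cells.

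Without thinning, *Mki67* was seen in 91.2%, 81.5%, 71.4%, 6.46%, and 3.79% of these 5 classes and *Cxcr2* in 29.6%, 53.2%, 54.2%, 97.6%, and 98.1%. Depth fell along the same classes, with medians of 42349, 30969.5, 19074, 4933.5, and 2527 UMIs per cell. Cells high in all 3 groups (241, median 2627 UMIs) had *Cxcr2* in 82.8% and *Mki67* in 9.20%, and 593 cells were high in none. Other lineages' lists reached 50 UMIs per 10,000 in 414 of these 593 cells, in 33 of the 635 primary-only cells, in 94 of the 751 secondary-only cells, and in 122 of the 4910 secondary and tertiary cells. In the tertiary-only class 1 cell held 99.8% of the osteoclast list's UMIs. Without it *Mmp9* stood at 2244 CPM in the other 263 cells, against 2501 CPM in all 264, a cell left out after its value was seen.

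**Figure D3:**
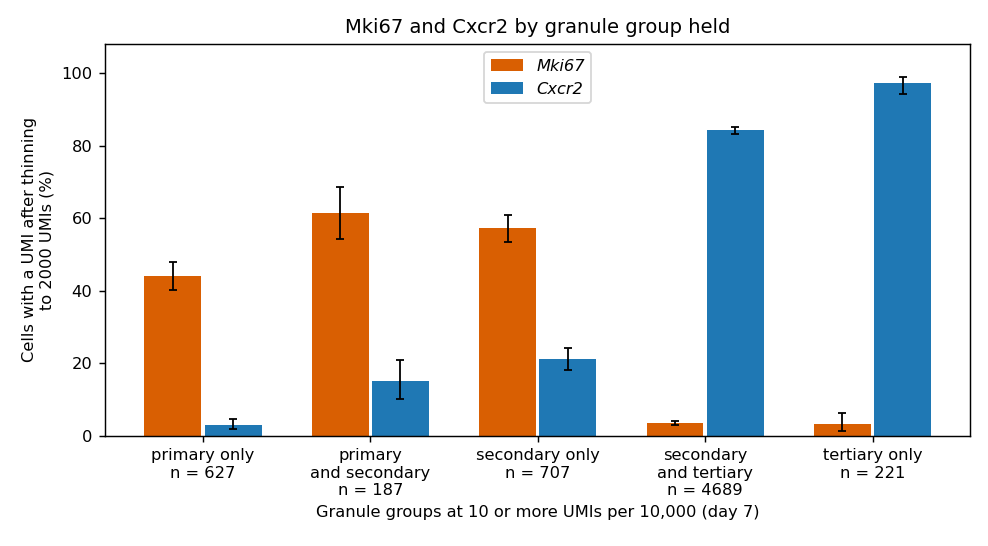
Share of day 7 selected cells with a UMI of *Mki67* or *Cxcr2* after thinning to 2000 UMIs, by the granule groups in which the cell was high, with Clopper-Pearson 95% intervals and the number of cells with at least 2000 UMIs. *Mki67* lies at 44.0% to 61.5% in the 3 plotted classes low in tertiary genes and at 3.58% and 3.17% in the 2 high in them, and *Cxcr2* passes from 3.03% to 97.3%.

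To read the order of the groups without using them, granulocyte-lineage cells were laid along an axis, the first principal component of 2000 variable genes that excluded the 10 members, *S100a8*, *S100a9*, *Mki67*, and *Cxcr2*. These were selected cells with no other lineage's list at 50 UMIs per 10,000 that had high S100, or low S100 and more *Gfi1*, *Cebpe*, and *Fcnb* than monocyte genes. The axis held 12.7% of the variance, its end was set as the side with more *Cxcr2*, and 5906 cells with at least 2000 UMIs were cut into 10 bins. *Chil3*, ribosomal, and mitochondrial genes led at its start and *Retnlg*, *S100a6*, and *Ccl6* at its end. The primary genes stood at 24130 CPM in bin 1 and at 166 to 329 CPM in bins 2 to 10. The secondary genes peaked in bin 2 at 124072 CPM (52909 in bin 1, 4430 in bin 10), and the tertiary genes in bin 5 at 8721 CPM (127 in bin 1, 4565 in bin 10). The order of the peaks was thus primary, secondary, and tertiary. Under the study's limits on cells the primary and secondary genes both peaked in bin 1 and the tertiary genes in bin 4.

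Gene by gene, *Elane*, *Mpo*, *Prtn3*, and *Ctsg* all peaked in bin 1, with 9724, 5269, 6105, and 3032 CPM. *Camp* and *Ngp* peaked in bin 2 at 55755 and 39688 CPM, and *Ltf* and *Lcn2* in bin 3 at 15691 and 17650.5 CPM. *Mmp8* peaked in bin 4 at 4920 CPM and *Mmp9* in bin 5 at 3852 CPM. Members of the secondary group ended at different distances from their peaks. In bin 10, *Ltf* was at 83.8 CPM, 187-fold below its peak, and *Camp* at 390 CPM, 143-fold below, but *Lcn2* was at 3396 CPM, 5.20-fold below its peak, and had a UMI in 90.7% of thinned cells. *Mmp8* was 2.47-fold and *Mmp9*, at 2572 CPM, 1.498-fold below its peak there.

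The handover from primary to secondary genes was short. With 20 bins, the primary genes stood at 37198 CPM in the first, 3527 in the second, and 183 in the third, and the secondary genes at 14628, 113262, and 126448 CPM. In the first of these bins *Camp* was already at 9249 CPM, while *Ltf* was at 383 CPM and *Mmp8* at 30.7 CPM. Of the 591 cells of bin 1 of 10, 197 were high in primary genes only, 144 in primary and secondary, and 229 in secondary only. Bin 2 held 315 secondary-only and 266 secondary and tertiary cells, and 575 of the 590 cells of bin 3 were high in secondary and tertiary genes.

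*Mki67* belonged to the first 2 bins, at 539 and 676 CPM, and was at 41.8 CPM in bin 3 and at 3.65 to 12.4 CPM from bin 4 on. The share of thinned cells with *Mki67* was 60.4%, 48.2%, and 3.39% in bins 1 to 3. *Cxcr2* was higher in each bin than in the one before, from 36.005 CPM in bin 1 to 2438 CPM in bin 10, or 6.09% to 98.5% of thinned cells, though *Cxcr2* set the direction of the axis. As a group, the secondary genes thus peaked in the same bin as *Mki67*, and *Mmp8* and *Mmp9* peaked where *Mki67* was at 6.15 and 3.65 CPM. Median depth fell along the axis from 31304 to 3361 UMIs per cell, and its part in the order was not tested. The primary genes had 2.96 UMIs per cell in bin 2 and 1.14 in bin 10, while the level was 154 CPM in the skeletal set and 95.4 CPM in the B lineage set.

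**Figure D4:**
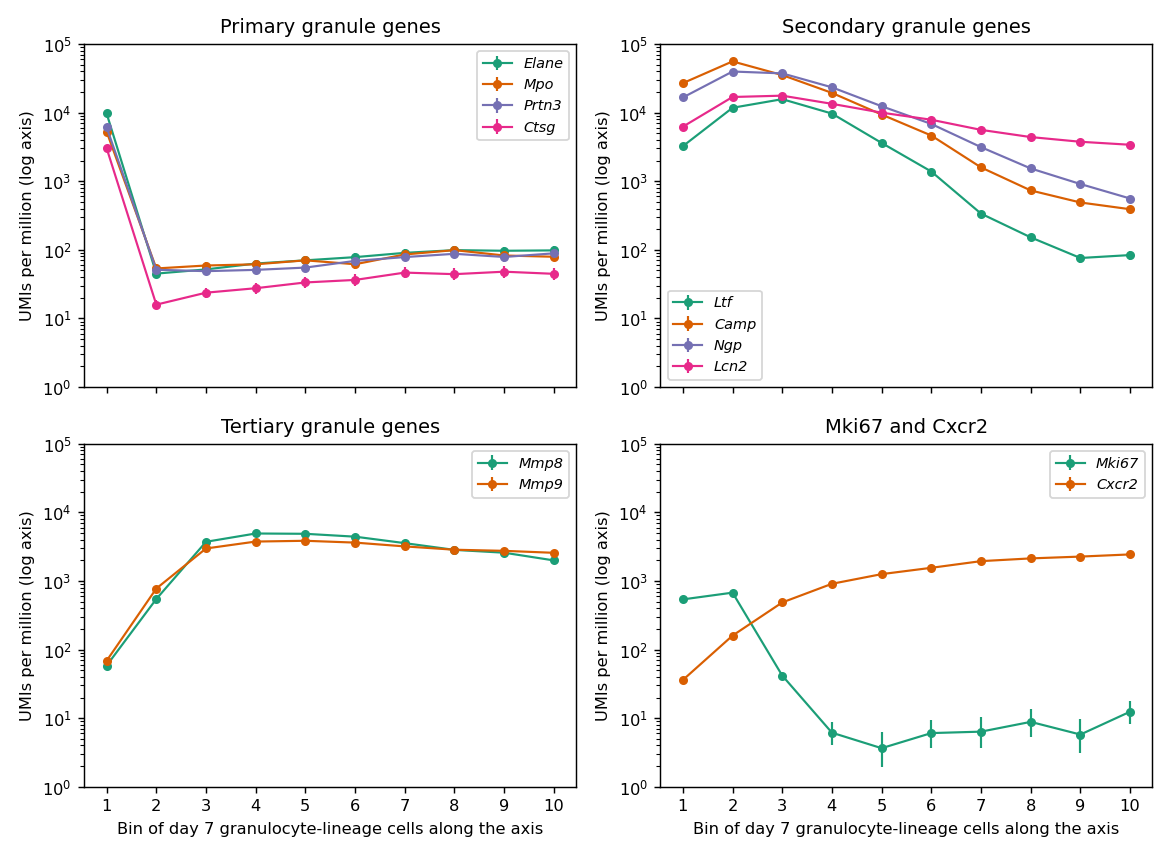
Level of the granule genes, *Mki67*, and *Cxcr2* (CPM, log axis) in 10 bins of 590 or 591 day 7 granulocyte-lineage cells along the axis, with exact Poisson 95% intervals. Primary genes are high in bin 1 alone, *Camp* and *Ngp* peak in bin 2, *Ltf* and *Lcn2* in bin 3, *Mmp8* in bin 4, and *Mmp9* in bin 5, while *Mki67* drops after bin 2 and *Cxcr2* climbs to bin 10.

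Across 20 bins, the profiles of *Elane* and *Prtn3* had a Pearson r of 0.997, *Elane* and *Mpo* 0.991, *Camp* and *Ngp* 0.980, *Camp* and *Lcn2* 0.764, and *Elane* and *Mmp9* -0.843. Bins share 1 library and a falling depth, so these values are descriptions. Among 4060 genes, those most like the primary group were *Rplp1* (0.987), *Rps12*, *Lgals1*, *Nme2*, and *Gstm1*. Those most like the secondary group were *Arhgdib* (0.992), *4930438A08Rik*, *Ltb4r1*, *Olfml2b*, and *Abhd5*, and those most like the tertiary group *Ceacam10* (0.994), *Arpc5*, *Bmx*, *Scrg1*, and *Milr1*. *Rplp1* and *Rps12* encode ribosomal proteins, and *Ltb4r1* is a receptor for leukotriene B4.

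Other granule genes spread over the same course. Of 27 listed, 25 reached 10 CPM in some bin, and 7 of these peaked in bin 1, 2 in bin 2, 8 in bins 3 and 4, 5 in bins 5 to 7, and 3 in bins 8 to 10. *Ms4a3* and *Prss57*, a serine protease, peaked in bin 1, *Chil3*, a chitinase-like protein, in bin 2, *Cd177* and *Cybb*, a subunit of the phagocyte oxidase, in bin 3, and *Adam8* and *Slpi* in bin 10. Of the secretory vesicle genes, receptors held in the last vesicles to form, 6 of 8 reached 10 CPM and 4 of them peaked in bins 8 to 10. Among factors that govern granulocyte formation, *Gfi1* peaked in bin 1 (98.8 CPM) and *Cebpe* in bin 2 (775 CPM), and *Csf3r*, the receptor of granulocyte colony-stimulating factor, in bin 10 (1561 CPM). All 12 proliferation genes peaked in bins 1 and 2, and 11 of 12 mature neutrophil genes in bins 8 to 10. Genes of these lists other than those excluded helped to build the axis, *Retnlg*, *Ccl6*, and *Msrb1* led its end, and *Cxcr2* set its direction. *Gfi1*, *Cebpe*, and *Fcnb* also admitted the 238 axis cells with low S100, so their early peaks are not independent of that gate. The peaks of the lists are therefore descriptions that the construction of the axis and the choice of its cells partly fixed.

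Splitting the 6138 cells with high S100 by *Cxcr2* separated the groups in the same direction. The 5672 cells with a *Cxcr2* UMI (median 4791.5 UMIs) had 2562 CPM of *Mmp8* against 257 CPM in the 466 without (median 17796 UMIs), a log2 ratio of 3.32 (95% CI 3.25–3.38), and 2256 against 329 CPM of *Mmp9* (2.78). These were the 2 of 10 genes at least 2-fold higher, against 13.6% of 13607 genes. *Elane* (-1.73), *Prtn3* (-1.61), *Mpo* (-1.35), and *Camp* (-1.02) were at least 2-fold lower, 4 of 10 against 16.7% of genes. *Ctsg* (-0.98), *Ngp* (-0.73), *Ltf* (-0.39), and *Lcn2* (-0.32) were lower by less. The median was -0.85 over the 10 genes and -0.21 over all genes. Summed over a group, the log2 ratio was -1.57 for primary, -0.77 for secondary, and 3.04 for tertiary genes, and with cells split after thinning it was -2.97, -1.14, and 1.74.

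Of 26 other granule genes measured, 4 were at least 2-fold higher and 7 lower in *Cxcr2* cells, with the largest ratios for *Slc11a1*, a metal transporter (3.96), *Adam8* (2.88), *Slpi* (2.30), *Fcnb* (-1.68), and *Ms4a3* (-1.60), and a median of -0.04. Of 8 secretory vesicle genes, 5 were higher and 1 lower, with *Fpr1*, a receptor for formyl peptides, at 3.76 and *Fcgr4*, an Fc receptor, at 1.72. *Mme*, at 1.18, had an interval that held 0. Of the 10 skeletal genes, 7 were at least 2-fold lower, and of 8 erythroid genes 7 were higher, and their part in the result was not tested.

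Splitting the same cells by *Mki67* gave 979 cells with it (median 21515 UMIs) and 5159 without (median 4497 UMIs). *Elane* stood at 1811 against 114 CPM, a log2 ratio of 3.99 (95% CI 3.94–4.04), with *Prtn3* at 3.52, *Mpo* at 2.67, *Ctsg* at 2.63, and *Camp* at 1.71, so 5 of 10 genes were at least 2-fold higher, against 33.7% of all genes. *Mmp8* (-3.04) and *Mmp9* (-2.68) were at least 2-fold lower, 2 of 10 against 13.4% of genes. *Ngp* (0.96), *Ltf* (0.32), and *Lcn2* (0.30) lay between, where the median of all genes was 0.44. Depth differed between the sides, and a split after thinning was tried as well. It kept the direction of each group, at 1.48 for primary, 0.94 for secondary, and -3.14 for tertiary genes, where the split at full depth gave 3.43, 1.08, and -2.86.

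Of 26 other granule genes, 9 were at least 2-fold higher and 4 lower in *Mki67* cells. *Fcnb*, ficolin B (5.01), *Ms4a3* (4.29), *Nkg7* (3.67), *Cst7*, cystatin F (3.16), and *Prss57* (3.11) had the largest ratios, and the median of the list was -0.07. Of 8 secretory vesicle genes, 5 were lower, *Fpr1* at -3.09. *Gfi1* (2.96) and *Cebpe* (1.85), transcription factors needed for granulocyte formation, were both higher.

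Cells with primary genes and low S100 were not all of 1 kind. Among them, 240 leaned to granulocyte genes (*Gfi1*, *Cebpe*, and *Fcnb*) and 439 to monocyte genes (*Irf8*, *Csf1r*, *Ly86*, *F13a1*, and *Ms4a6c*), a gate chosen after the data were seen, and their depths were close, at medians of 39693.5 and 43384 UMIs. All 4 primary genes were high in both. *Elane* stood at 16565 CPM in granulocyte-leaning and 6512 CPM in monocyte-leaning cells (log2 ratio 1.35, 95% CI 1.34–1.36), *Ctsg* at 5906 and 3123 (0.92), *Mpo* at 9799 and 5194 (0.92), and *Prtn3* at 10624 and 5781 (0.88). *Camp* stood at 544 and 221 CPM (1.30), carried by few cells, since the medians were 1.40 and 1.09 UMIs per 10,000 and the 95th percentiles 31.0 and 4.86. A *Camp* UMI was seen after thinning in 33.2% and 25.4% of them, no more than the 36.1% of the B lineage set. *Elane* and *Camp* were the 2 of 10 genes at least 2-fold higher, against 6.84% of 12652 genes, and 0 of 10 were lower, against 9.26%.

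Genes outside the gate also differed between the leaning cells. *Cd63*, a granule membrane protein (3.18), *Wfdc21* (2.94), and *Nkg7* (1.86) were higher in granulocyte-leaning cells, and *Lyz2*, lysozyme (-2.89), was lower. Among the factors outside the gate, *Klf4*, known for monocytes (-5.42), was lower and *Per3* (2.70) higher. *Mki67* was seen in 37.9% of granulocyte-leaning and 47.9% of monocyte-leaning cells after thinning.

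A smaller set had only part of the primary programme. In 19 primary-high cells with the basophil and mast cell list at 50 UMIs per 10,000 or more, *Ctsg* stood at 3523 CPM and *Mpo* at 2327 CPM, but *Elane* at 372 and *Prtn3* at 349.5 CPM. *Ctsg* had a UMI in 19 of 19 thinned cells (100%), *Elane* in 21.1%. *Mcpt8* and *Prss34*, basophil proteases, were at 18941 and 35416 CPM there, but both are on the list that chose these cells.

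The 209 cells that the rule found at day 14 are described without a comparison of days. Of these, 146 had high S100, and their levels beside the day 7 cells with high S100 were 439 and 847 CPM for *Elane*, 22030 and 29753 for *Camp*, and 10851 and 11425 for *Lcn2*. They were 656 and 2179 CPM for *Mmp8*, 719 and 1936 for *Mmp9*, and 137 and 807 for *Cxcr2*. Of all 209 cells, 92 were high in secondary and tertiary genes, and *Cxcr2* was seen in 35.96% of them after thinning. Only 18 of the 209 cells were primary-high, 4 of them also secondary-high and 0 tertiary-high (up to 18.5%). Day 14 cells carried more skeletal RNA. In the 92 secondary and tertiary cells the skeletal list, scaled as above, stood at 311, against 44.3 in the 4910 day 7 cells of that class. Another lineage's list reached the gate in 26 of the 92 and in 122 of the 4910. The part of this RNA in the lower day 14 levels and *Cxcr2* share was not tested.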

How the data were processed

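Droplet libraries of mRNA 3' ends from callus cells of day 7, day 10, and day 14 (1 library each) were analyzed. The authors aligned reads to the mouse genome (mm10 per the labels) and collapsed UMIs with Cell Ranger, for which the submitters' processing notes give version 3.0 and the matrix headers 3.1.0. The authors deposited whole UMI counts per gene and barcode, without normalization. The deposited counts include cells outside the study's limits of 500 to 5000 genes, 10% mitochondrial, and 5% hemoglobin UMIs, and only the lower gene limit was applied. Of the selected day 7 cells, 982 lay outside those limits.

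The 10 genes, the cell rule, and the gene lists were chosen with earlier results of these data known. All 10 genes, *Mki67*, and *Cxcr2* are named. Of each list, the 5 genes with the largest absolute log2 ratio were eligible, and the 5 genes most like each group over 20 bins (log2 of CPM plus 10, genes with at least 50 CPM in some bin). Genes named by peak bin were picked after their values were seen. So were the motif letters, the gate of 50 UMIs per 10,000 for other lineages, the sets selected by B lineage, skeletal, or basophil genes (*S100a8* plus *S100a9* under 100 per 10,000), the leaning limit of 1 per 10,000, and the lineage gate of the axis.

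Counts were summed over cells as CPM with exact Poisson intervals, shares had Clopper-Pearson intervals, and log2 ratios had exact binomial intervals, all at 95%, for genes with at least 10 UMIs in both sets together. Cells were thinned to 2000 UMIs, leaving out 445 selected cells. No test was run, since each day has 1 library. The axis left out 1733 selected cells, 698 of them with another lineage's list at 50. Doublets were kept. Ratios and order were tested on simulated data. Software was scanpy 1.11.5, scikit-learn 1.9.0, anndata 0.12.19, matplotlib 3.10.9, scipy 1.17.1, numpy 2.4.6, and pandas 2.3.3 in Python 3.11.15. Gene positions are from the GENCODE M21 annotation of GRCm38.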

Additional observations from a re-analysis of the deposited data

How the results depend on the processing

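No paired analysis was possible because each day has 1 library and nothing was tested. Of 133 values under other settings, 0 reversed, 60 stayed the same, and 73 moved, from causes that were not tested. Shares and log2 ratios counted as the same inside the counting interval of the main value. Counts of cells or genes did so within 1.5 times, and peak bins only when equal.

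The log2 ratios over background (primary 9.31, secondary 8.78, tertiary 5.51) were 6.14, 9.27, and 6.29 under the study's limits, 6.91, 9.64, and 6.35 for cells chosen by *S100a8* and *S100a9* alone, 9.61, 9.08, and 5.81 without the members and S100 genes in the total, 9.89, 13.91, and 5.97 against day 10, 10.76 and 11.03 (primary and secondary) against day 14 cells with little S100, and 8.99 (secondary) without *Lcn2*.

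The share of primary-high cells that were secondary-high (40.8%) was the least stable, at 75.8% under the study's limits, 93.2% by S100 alone, 70.9% and 20.4% at limits of 5 and 20 UMIs per 10,000, 53.5% without those genes in the total, and 33.0% without *Lcn2*. The share of secondary-high cells that were tertiary-high (84.2%) was 86.2% under the study's limits, 86.2% by S100 alone, 79.0% at a limit of 20, 86.0% without those genes in the total, 82.5% without *Lcn2*, and 80.0% with *Mmp8* counted as secondary.

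*Mki67* in primary-high cells (40.8%) was seen in 27.8% under the study's limits, 32.7% by S100 alone, 26.9% and 46.4% at limits of 5 and 20, 33.5% without those genes in the total, 24.9% thinned to 1000 UMIs, and 70.1% not thinned. *Cxcr2* in tertiary-high cells (84.8%) was seen in 83.3% at a limit of 5, 71.8% thinned to 1000, and 97.5% not thinned. *Cxcr2* in secondary-high cells (74.2%) was seen in 76.3% under the study's limits, 75.5% by S100 alone, 71.9% at a limit of 5, 62.2% thinned to 1000, 90.6% not thinned, and 69.7% without *Lcn2*.

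The peak bin of the tertiary genes (5) was 4 under the study's limits, by S100 alone, and without those genes in the total, and 7 on an axis from marker lists. The secondary genes (bin 2) peaked in bin 1 under the study's limits, level with the primary genes. In the other settings run the order was primary, secondary, tertiary.

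Settings chosen after seeing the data came next. Without the 5% of cells with the highest doublet scores the log2 ratios were 9.37, 8.71, and 5.46 and the tertiary peak bin was 4. Scrublet marked 0 of 8439 cells, so leaving out called doublets was not run. With 5000 UMIs or more, the shares in the same sequence were 24.4%, 76.5%, 48.0% (*Mki67*), 73.1%, and 58.6% (*Cxcr2*). Without other lineages, 85.4% of secondary-high cells were tertiary-high and 75.4% had *Cxcr2*. When cells were split after thinning, 4600 genes were at least 2-fold lower in *Cxcr2* cells (2277 at full depth) and 2882 higher in *Mki67* cells (4590).

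Each day is 1 library, so intervals cover counting error alone, and depth fell from primary to tertiary cells. The shallow cells limit what can be said of co-detection.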
